A study of Mus musculus with 15 samples.

Results

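Aminoacyl-tRNA synthetases, the enzymes that join amino acids to their tRNAs, were followed in mouse embryonic fibroblasts without telomerase RNA and without the Werner helicase. The members were the protein-coding genes whose description in the deposited table contains the words tRNA synthetase. There were 42 of them among 54495 genes, of which 22028 were protein-coding. By symbol they divided into 19 genes for cytosolic enzymes, 2 for enzymes of both compartments (Gars and Kars), 17 for mitochondrial enzymes, and 4 that do not encode a charging enzyme (Aimp1, Aimp2, Aarsd1 and Prorsd1).

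PolyA RNA was sequenced from fibroblasts of embryos harvested at e13.5 (embryonic day), cultured at 3% oxygen and 5% CO2, at 37 °C, in serum-supplemented DMEM. Every group was mTR-/- (the telomerase RNA gene Terc) and Wrn-/- (the helicase gene of Werner syndrome), so no group here has telomerase or Wrn. The groups called DM carried wild-type p53, and the groups called TM carried p53 N236S on both alleles. G1, G3 and G5 are generations 1, 3 and 5. There were 2 libraries of each genotype in G1, 2 of DM and 3 of TM in G3, and 3 of each in G5, which makes 15. The design text gives the purpose as learning how the p53 mutant relieves ageing phenotypes of the Werner model. That text also lists WT and p53S cells, not analysed here. The labels do not say whether replicates came from separate embryos or cultures. G1DM, G5DM and G5TM each held libraries with Y-linked genes and libraries with Xist, so their libraries were not all from the same embryo. For G1TM, G3DM and G3TM this is not known. The p-values measure the spread between these libraries, which may be technical in part.

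Each synthetase activates its amino acid with ATP and transfers it to the matching tRNA, which then carries it to the ribosome. Cytosolic and mitochondrial protein synthesis use separate sets of enzymes, both encoded in the nucleus, except that the glycine and lysine enzymes of both compartments come from a common gene. In the cytosol, several synthetases are bound together with the scaffold proteins Aimp1, Aimp2 and Eef1e1 in the multisynthetase complex. Shortage of amino acids leaves tRNAs uncharged, which activates the kinase Gcn2 and raises translation of the transcription factor Atf4. Several cytosolic synthetase genes are among the known targets of Atf4, which binds DNA with C/EBP partners at the composite element TGATGNAA.

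The promoters of the members were searched for TGATGNAA on both strands. The windows came from RefSeq (GRCm38.p6) and ran from 250 bases before to 50 bases after each transcript start. A window was listed for 32 of the 42 members. The element was found in 4 of 12 cytosolic genes (Aars, Iars, Tars and Yars), in Gars among the 2 genes of both compartments, in 0 of 14 mitochondrial genes and in 0 of 4 genes that do not charge tRNA. A match was held by 4.51% of all genes with a window and by 3.97% of all windows. A match is a sequence description only, and its absence says only that these letters are not in this window. Of the genes with a match, Aars, Tars and Yars were called higher in TM below, and Gars and Iars in no comparison. Farsa, Mars, Kars and Sars2, also called higher, had a window without a match, and Vars had no window. A link between the element and the differences below was not tested. For each of the 5 genes 1 match is printed below 5′ to 3′ along the gene's strand, 30 bases each, with the element in capitals. In every one except Yars the element lies on the other strand, so it reads TTNCATCA.
Aars, chr8:111033840-111033869, plus strand: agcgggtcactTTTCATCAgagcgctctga
Gars, chr6:55037960-55037989, plus strand: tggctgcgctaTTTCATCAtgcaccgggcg
Iars, chr13:49682126-49682155, plus strand: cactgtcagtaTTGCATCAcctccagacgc
Tars, chr15:11399655-11399684, minus strand: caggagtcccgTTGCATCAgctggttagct
Yars, chr4:129189895-129189924, plus strand: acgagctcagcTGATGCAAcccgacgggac

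The whole element lies ahead of the RefSeq start in Gars and in Tars. The 250 bases before that start are shown for Gars and Tars, where the element begins at positions −30 and −15. The capitals again mark the element.
Gars, chr6:55037751-55038000, plus strand: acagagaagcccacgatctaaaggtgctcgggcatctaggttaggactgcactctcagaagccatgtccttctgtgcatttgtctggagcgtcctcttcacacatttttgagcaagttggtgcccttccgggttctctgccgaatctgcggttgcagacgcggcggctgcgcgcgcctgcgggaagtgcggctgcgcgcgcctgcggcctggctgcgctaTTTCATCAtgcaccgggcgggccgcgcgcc
Tars, chr15:11399659-11399908, minus strand: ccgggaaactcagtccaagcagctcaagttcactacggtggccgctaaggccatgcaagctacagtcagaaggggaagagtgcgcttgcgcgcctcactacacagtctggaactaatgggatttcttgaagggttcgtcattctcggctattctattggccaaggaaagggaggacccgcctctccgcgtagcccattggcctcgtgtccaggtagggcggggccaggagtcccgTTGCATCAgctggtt

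The libraries held 17448588 to 29571111 reads recovered from the table. The targeted genes were low, with Wrn at 0.0447 to 0.599 FPKM (fragments scaled by gene length and library size) and Terc, which has no polyA tail, listed at 0 in 14 libraries and 0.109 in the other. Cdkn1a, a p53 target that encodes p21, was 4.22 to 29.6 FPKM in the 8 TM libraries and 86.2 to 216 in the 7 DM libraries, while Trp53 itself was 32.2 to 96.6. A division ran between the 6 late TM libraries (G3 and G5) and the remaining 9, for example with 44.7 to 73.6 FPKM of the mitochondrial ribosomal RNA mt-Rnr2 against 1.48 to 3.76. The nuclear genes Rpl12 (300 to 610 FPKM against 3.84 to 6.77) and Rrp1 (73.5 to 102 against 0.780 to 1.67) divided in the same way. All 6 lay above all 9 for 10 members (Farsa, Hars, Mars, Vars, Aars2, Cars2, Hars2, Pars2, Sars2 and Vars2) and for 17.1% of all genes tested. Genotype in G3 and G5 and generation within TM cannot be told apart from that division. TM against DM in G1 and the DM generations lie within the 9. A second division set the G1 libraries and G5DM replicates 2 and 3 apart from all others. They had 22975 to 25789 genes above 0 and the others 19758 to 21784, and Wrn was 0.274 to 0.599 against 0.0447 to 0.196 FPKM. G3 against G1 in DM and both steps within TM cross it, and there generation cannot be told apart from it. It also runs through G5DM. Its part in the results below was not tested. Genes of the Y chromosome (Uty, Kdm5d, Ddx3y and Eif2s3y) summed to 2.40 to 34.7 FPKM in 7 libraries and to 0 in the 8 that expressed Xist, and in G3 this sex difference coincided with genotype. The 12 fibroblast markers summed to 3355 to 6494 FPKM. Macrophage markers summed to 5.42 to 370.2 FPKM, skeletal muscle markers to 36.1 to 391, endothelial markers to 0.926 to 5.09, epithelial markers to 3.85 to 75.1, and erythroid markers to 0 to 0.490 with Hba-a2 and Hbb-bs at 0 throughout. Neural markers summed to 95.5 to 289.5 FPKM in the 6 late TM libraries and 38.4 to 97.3 in the other 9. The part of any of these in the results below was not tested, and in bulk samples fewer cells of a type and less RNA per cell cannot be told apart.

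Cytosolic enzymes were expressed far above mitochondrial ones in every library. The median FPKM of the 19 cytosolic genes ranged from 18.7 in G5DM replicate 3 to 54.7 in G3TM replicate 2, and that of the 17 mitochondrial genes from 2.10 in G5DM replicate 2 to 4.41 in G3TM replicate 2. Summed FPKM of the cytosolic class was 7.86 to 13.2 times that of the mitochondrial class. Nars (asparagine) and Gars (glycine) had the highest medians over the 15 libraries, 117 and 109.9 FPKM, and Tarsl2, a threonyl-tRNA synthetase-like gene, had the lowest cytosolic one, 1.41. Among mitochondrial genes the medians ran from 0.863 FPKM for Nars2 to 9.70 for Iars2. Aarsd1, an editing protein related to the alanine enzyme, stayed at 0.0726 to 0.297 FPKM. Its whole interval, 10777 bases, is overlapped on the same strand by the protein-coding gene Gm27029, at up to 0.284 FPKM. Reads of these genes may not have been told apart in counting, so the low value of Aarsd1 may not be its level. Aarsd1 was the 1 member below the filter of at least 1 FPKM in 2 libraries, which left 41 members among the 13562 genes tested.

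**Figure D1:**
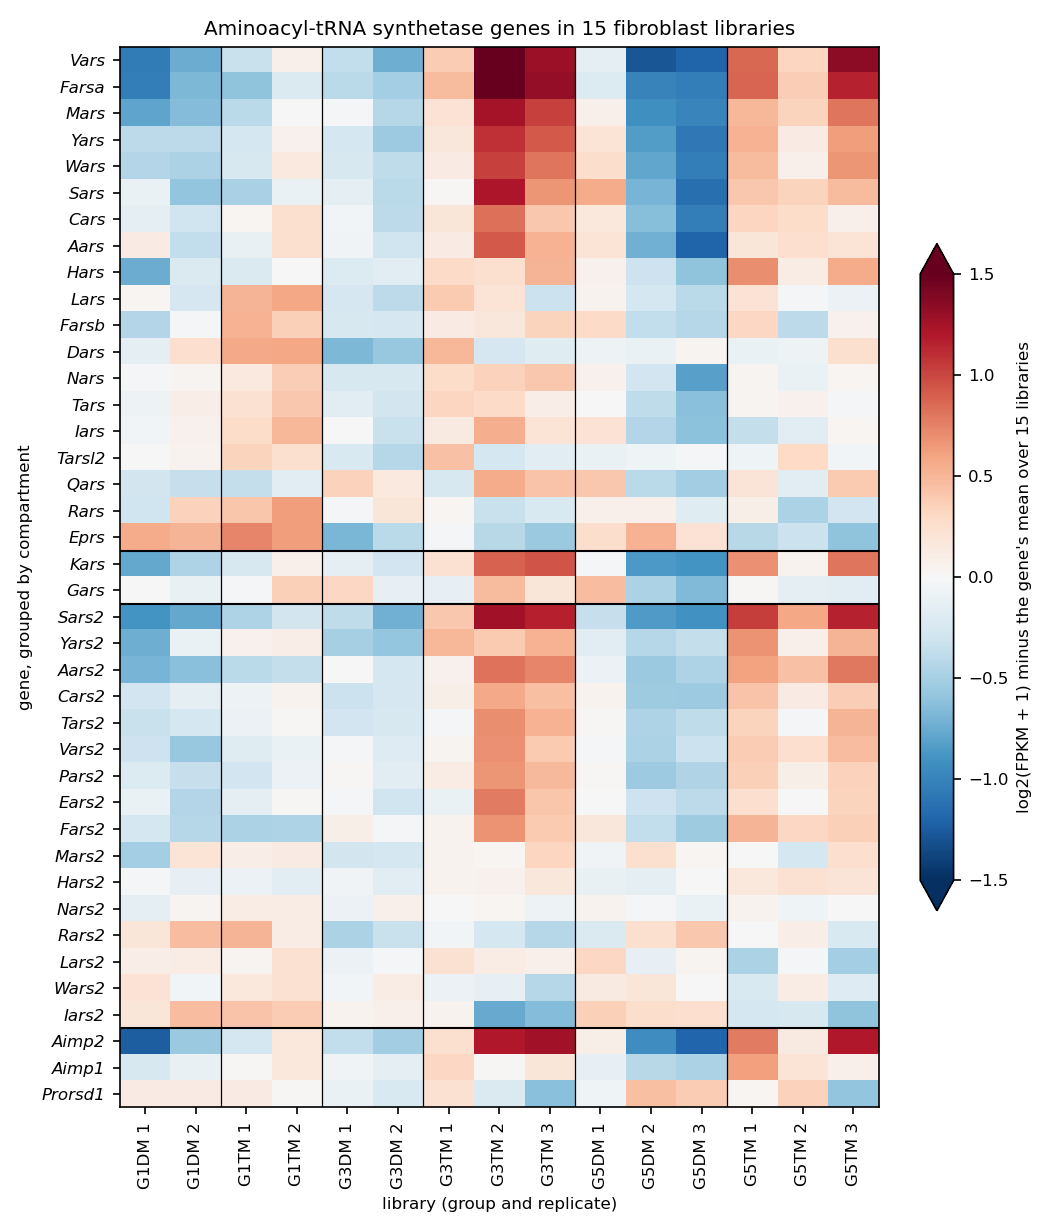
Level of 40 of the 41 tested members (rows, grouped as cytosolic, both compartments, mitochondrial and not charging) in the 15 libraries (columns), as log2(FPKM + 1) minus the gene's own mean; red is above and blue below that mean, and colours saturate at 1.5. Most rows are red in the G3TM and G5TM columns and blue in G5DM replicates 2 and 3, while Eprs is blue in all 6 of those TM columns and red in those 2 DM columns, and Iars2 is likewise except in G3TM replicate 1.

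Within each amino acid the cytosolic gene also had the higher level. Over the 17 amino acids with a separate gene for each compartment, the median ratio of cytosolic to mitochondrial FPKM reached 130 for asparagine (Nars to Nars2), and the middle value was 8.54, for alanine. Eprs, which carries the glutamate and proline activities in a single protein, was set against Ears2 and Pars2 and gave median ratios of 7.19 and 5.48. For phenylalanine, Farsa was set against Fars2. No pair reversed in any library.

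In G1, where the genotypes were not divided by the library split, 37 of 41 members had a higher level in TM, but no member passed the test. Over all genes tested, 52.2% had a higher level in TM. With limma 0 of 41 members had an adjusted p under 0.05, 4 had an unadjusted p under 0.05, and limma-voom on the recovered reads called 0. Over all genes 1.17% were called. The share of calls that were higher was 30.8% over all genes and 48.8% after quantile normalization. All differences below are on the log2(FPKM + 1) scale, which understates the change of low genes. The 19 cytosolic genes had differences of 0.05 to 0.77, all above 0, with a median of 0.37 against 0.02 over all genes tested (quantile normalization gave 0.32, median centring 0.35). In 16 of them both TM libraries lay above both DM libraries, where 26.4% of all genes tested did so. The mitochondrial genes had a median of 0.20 and 14 of 17 above 0, and in 8 both TM libraries lay above both DM libraries.

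Named members in G1 covered a wide range of precision. Vars, the valine enzyme, had the largest cytosolic difference at 0.77 ± 0.45 (SE; adjusted p = 0.56), and Qars, the glutamine enzyme, the smallest at 0.05 ± 0.32 (SE; adjusted p = 0.99). Fars2, the mitochondrial phenylalanine enzyme, had a G1 difference of −0.12 ± 0.24 (SE; adjusted p = 0.95). Lars (leucine) and Farsb (a phenylalanine enzyme subunit) had differences of 0.66 ± 0.25 and 0.67 ± 0.28, and neither passed. The complex scaffold gene Aimp2 differed by 0.84 ± 0.46 (SE; adjusted p = 0.51).

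In G3, 13 of 41 members rose in TM and 0 fell, where 18.0% of all genes tested rose and 13.9% fell. They were 5 of 19 cytosolic genes (Vars, Farsa, Yars, Mars and Dars), Kars, 6 of 17 mitochondrial genes (among them Sars2, Yars2, Aars2, Cars2 and Tars2), and Aimp2. Class medians were 0.58 for cytosolic and 0.48 for mitochondrial genes against 0.01 over all genes. The count depended on single libraries: it was 3 without G3DM replicate 2, 4 without G3DM replicate 1, 5 without G3TM replicate 2 or replicate 3, 8 without G1TM replicate 1 or replicate 2, and 20 without G5DM replicate 1. Calls that were kept in every alternative were those of Farsa, Sars2 and Yars2. In G3 the libraries also differed in sex and in the late TM division described above, and these cannot be told apart from genotype.

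In G5, 19 members rose and 3 fell, where 30.3% of all genes tested rose and 28.4% fell. The risers were 8 cytosolic genes, Kars, 8 mitochondrial genes, Aimp1 and Aimp2, and the fallers were Eprs, Iars2 and Lars2. Class medians were 0.36 for cytosolic and 0.42 for mitochondrial genes against 0.02 over all genes. Quantile normalization gave 18 risers and 6 fallers, with 4 cytosolic and 11 mitochondrial risers. Without G5DM replicate 3 the count was 13, of which 11 rose. Calls of 12 members were kept in every alternative: Aars2, Aimp1, Aimp2, Cars2, Eprs, Farsa, Kars, Mars, Sars2, Vars, Vars2 and Yars2. The unadjusted p was under 0.05 for 24 members.

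**Figure D2:**
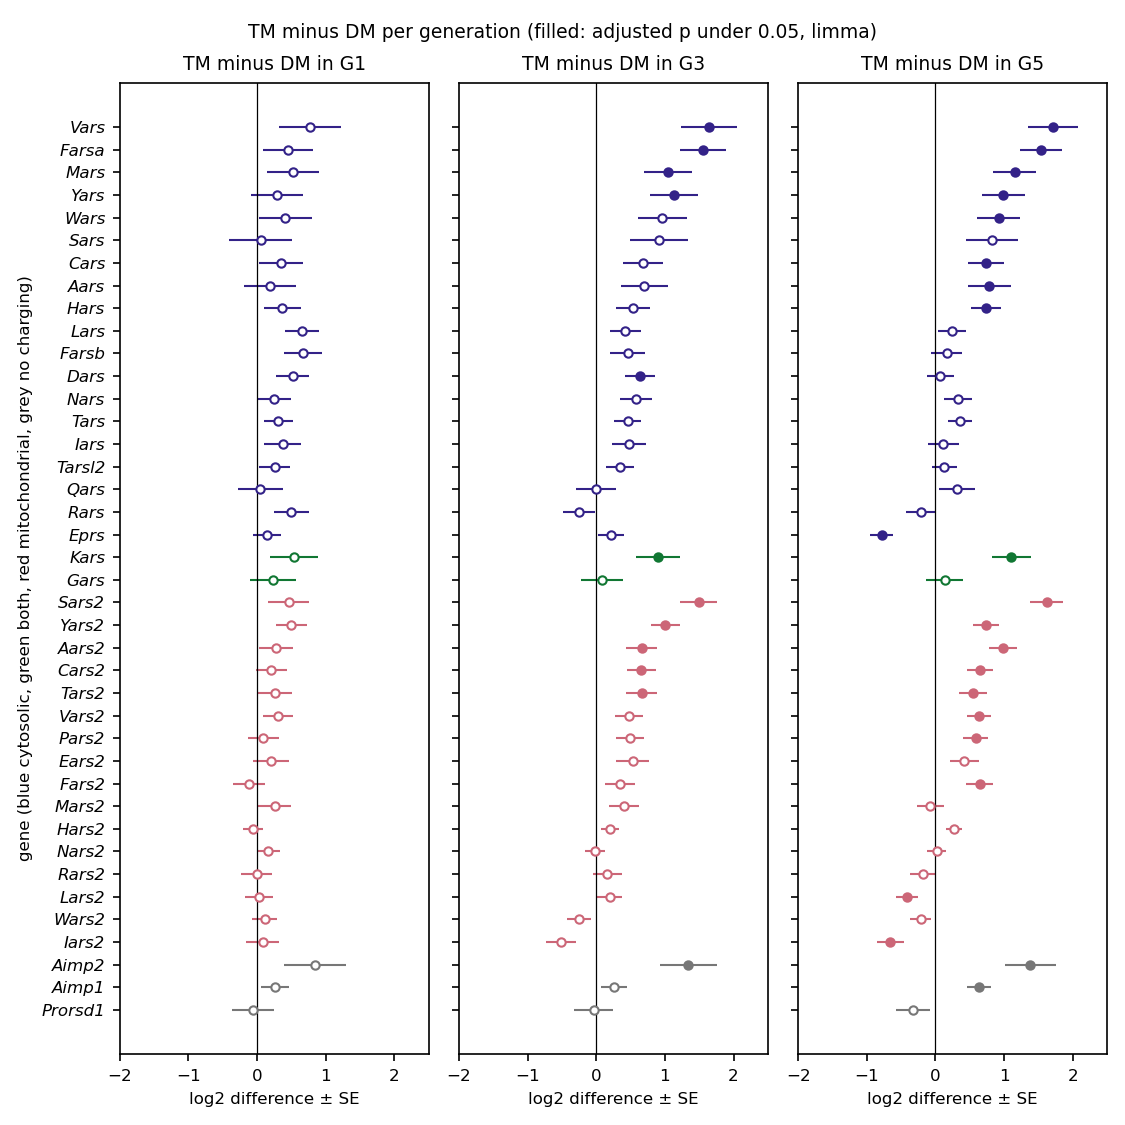
TM minus DM on the log2(FPKM + 1) scale (horizontal axis) for 40 of the 41 tested members (rows) in G1, G3 and G5 (panels), with bars of 1 standard error; filled points passed an adjusted p under 0.05. No point is filled in G1, 12 are filled in G3 and 22 in G5, and the 3 filled points left of 0 are Eprs, Iars2 and Lars2.

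Averaged over the 3 generations, 25 members rose in TM and 1 fell, where 29.0% of all genes tested rose and 25.1% fell. The average is the mean of the 3 differences within generations, so each generation has equal weight. Among cytosolic genes 13 of 19 rose and 0 fell, and among mitochondrial genes 9 of 17 rose and 1 fell. The median difference over members was 0.41 against −0.0043 over all genes, and it stayed between 0.31 and 0.48 over the alternatives. The gap between the cytosolic median (0.44) and the mitochondrial median (0.38) did not hold its direction: quantile normalization gave 0.21 and 0.48. That setting called 6 cytosolic and 11 mitochondrial risers.

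Vars had the largest difference of all members on the log2(FPKM + 1) scale in G3, in G5 and on average. In DM, Vars was 26.0 and 32.1 FPKM in G1, 42.0 and 32.4 in G3, and 49.3, 21.9 and 23.3 in G5. In TM, Vars was 43.1 and 57.7 FPKM in G1, 71.4, 167 and 134 in G3, and 99.97, 68.5 and 140.5 in G5. Every G3TM and G5TM library lay above every other library, and in G1 the TM libraries lay above the DM libraries. The mean level was 3.34 times as high in G3TM as in G3DM and 3.27 times as high in G5TM as in G5DM, below the ratios of mean FPKM for Sars2, 3.40 and 3.72. The average difference was 1.37 ± 0.24 (SE; adjusted p = 0.00041). Its call in G3 was lost without G3DM replicate 2.

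The phenylalanine enzyme is built from an alpha subunit (Farsa) and a beta subunit (Farsb). In DM, Farsa was 8.62 and 11.3 FPKM in G1, 13.8 and 12.8 in G3, and 16.1, 8.83 and 8.60 in G5. In TM, Farsa was 12.0 and 15.9 FPKM in G1, 26.3, 54.7 and 48.2 in G3, and 34.9, 24.4 and 42.6 in G5. The 6 late TM libraries, 24.4 to 54.7 FPKM, did not overlap with the other 9, 8.60 to 16.1. Farsa rose by 1.56 ± 0.34 in G3 and 1.54 ± 0.30 in G5 (SE; adjusted p = 0.0042 and 0.00098). In DM, Farsb was 18.6 and 25.4 FPKM in G1, 21.5 and 21.3 in G3, and 31.5, 19.6 and 18.7 in G5. In TM, Farsb was 37.1 and 33.2 FPKM in G1, 28.0, 29.0 and 32.5 in G3, and 31.9, 19.2 and 26.9 in G5. Its highest library was G1TM replicate 1, and DM and TM overlapped in G5. The Farsb difference was 0.46 ± 0.25 (SE; adjusted p = 0.18) in G3 and 0.16 ± 0.23 (SE; adjusted p = 0.55) in G5, and only its average over generations, 0.43 ± 0.15 (SE; adjusted p = 0.024), passed the test, in 19 of 24 alternatives.

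Mars, Yars and Wars, the methionine, tyrosine and tryptophan enzymes, rose by smaller amounts. In DM, Mars was 25.6 and 28.2 FPKM in G1, 44.4 and 33.1 in G3, and 47.2, 23.2 and 22.0 in G5. In TM, Mars was 33.6 and 44.9 FPKM in G1, 52.2, 107 and 92.6 in G3, and 63.7, 56.6 and 78.8 in G5. The late TM libraries, from 52.2 FPKM, lay above the other 9, up to 47.2, and the average difference was 0.91 ± 0.20 (SE; adjusted p = 0.0022). Yars averaged 0.81 ± 0.20 (SE; adjusted p = 0.0048) and Wars 0.77 ± 0.20 (SE; adjusted p = 0.0069), with G5DM replicate 1 inside the TM range for each. Hars, the histidine enzyme, averaged 0.55 ± 0.14 (SE; adjusted p = 0.0059), and its G5 call was lost with quantile normalization, with only the groups compared, and without G5DM replicate 3 or G5TM replicate 1. Aars (alanine), Cars (cysteine), Dars (aspartate), Lars (leucine), Nars (asparagine) and Tars (threonine) had average rises of 0.38 to 0.59 that passed. Those of Aars, Cars, Dars, Lars, Nars and Tars were each lost under at least 1 alternative, and the Nars difference was −0.0049 after quantile normalization.

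Sars had a large difference but a wide spread. In DM, Sars was 58.9 and 41.6 FPKM in G1, 56.9 and 47.7 in G3, and 93.3, 38.5 and 28.2 in G5. In TM, Sars was 44.9 and 58.9 FPKM in G1, 64.2, 148 and 101 in G3, and 83.9, 80.1 and 88.0 in G5. Replicate 1 of G5DM, at 93.3 FPKM, was above all 3 G5TM libraries, while the other G5DM libraries were the lowest of the 15. Its average difference of 0.60 ± 0.24 (SE; adjusted p = 0.053) did not pass. Iars, Qars and Tarsl2 also passed in no comparison, with average differences of 0.32, 0.12 and 0.24.

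Eprs fell in the later TM groups. In DM, Eprs was 21.6 and 21.1 FPKM in G1, 8.61 and 10.7 in G3, and 17.5, 21.1 and 17.0003 in G5. In TM, Eprs was 24.6 and 22.9 FPKM in G1, 14.2, 10.6 and 9.53 in G3, and 10.6, 11.3 and 9.19 in G5. Every library of G1DM, G1TM and G5DM lay above every library of G3DM, G3TM and G5TM, whose range was 8.61 to 14.2 FPKM. In G5 all 3 TM values were under all 3 DM values, with a difference of −0.78 ± 0.17 (SE; adjusted p = 0.0019), whereas in G3 the difference was 0.21 ± 0.19 (SE; adjusted p = 0.42), with G3DM at 8.61 and 10.7 FPKM. Within TM, Eprs fell, with a difference of −1.01 ± 0.19 (SE; adjusted p = 0.0018) from G1 to G3 and −1.13 ± 0.19 (SE; adjusted p = 0.00071) from G1 to G5. Both of these steps cross both divisions of the libraries, which cannot be told apart from generation. The G3 step within DM crosses the second of these divisions too. Within DM the G3 difference from G1 was −1.08 ± 0.21 (SE; adjusted p = 0.055) and the G5 difference −0.20 ± 0.19 (SE; adjusted p = 1.0).

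Rars, the arginine enzyme, also fell across TM generations, where generation cannot be told apart from the division of the libraries. In DM, Rars was 35.0 and 55.1 FPKM in G1, 42.5 and 49.2 in G3, and 45.8, 45.7 and 38.1 in G5. In TM, Rars was 58.0 and 67.4 FPKM in G1, 44.3, 34.1 and 36.7 in G3, and 46.1, 30.9 and 35.2 in G5. Both G1TM libraries were above every other library, and the remaining groups overlapped. The difference was −0.70 ± 0.23 (SE; adjusted p = 0.026) from G1 to G3 and −0.75 ± 0.23 (SE; adjusted p = 0.018) from G1 to G5 within TM. The first was lost with the replicate block and without G1TM replicate 1 or 2 or G3TM replicate 2 or 3. The G5 call was lost without G1TM replicate 1 or 2 or G5TM replicate 2.

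Of the genes that serve both compartments, Kars passed the test and Gars did not. The lysine enzyme is encoded by Kars. In DM, Kars was 33.8 and 42.0 FPKM in G1, 53.1 and 47.6 in G3, and 57.8, 31.5 and 30.9 in G5. In TM, Kars was 49.2 and 61.8 FPKM in G1, 68.6, 108 and 113 in G3, and 94.8, 60.3 and 102 in G5. Its late TM libraries, from 60.3 FPKM, overlapped only with G1TM replicate 2 at 61.8, and its average difference was 0.85 ± 0.18 (SE; adjusted p = 0.0019). Its call in G3 was kept in 10 of 25 alternatives. The glycine enzyme is encoded by Gars. In DM, Gars was 111 and 104 FPKM in G1, 138 and 103 in G3, and 154, 80.1 and 70.0 in G5. In TM, Gars was 109.9 and 143 FPKM in G1, 102, 156 and 127 in G3, and 113, 102 and 99.7 in G5. Its groups overlapped in every generation, and the average difference was 0.15 ± 0.18 (SE; adjusted p = 0.49).

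Members of the multisynthetase complex differed among themselves. Over the 8 enzymes and 3 scaffold genes, 5 rose in G3 and 0 fell, 5 rose in G5 and 1 fell, and on average 7 rose and 0 fell. Over all genes tested 18.0% rose and 13.9% fell in G3, 30.3% and 28.4% in G5, and 29.0% and 25.1% on average. In DM, Aimp2 was 12.1 and 19.9 FPKM in G1, 22.95 and 20.5 in G3, and 31.9, 15.2 and 12.5 in G5. In TM, Aimp2 was 24.6 and 33.4 FPKM in G1, 35.4, 69.6 and 73.1 in G3, and 52.0, 32.9 and 69.6 in G5. TM lay above DM in each generation. Its average difference was 1.19 ± 0.24 (SE; adjusted p = 0.0013). In DM, Aimp1 was 9.17 and 10.1 FPKM in G1, 10.6 and 9.90 in G3, and 10.0, 7.97 and 7.62 in G5. In TM, Aimp1 was 11.1 and 12.4 FPKM in G1, 13.9, 11.1 and 12.6 in G3, and 17.4, 12.8 and 11.6 in G5. All 8 TM libraries of Aimp1, from 11.1 FPKM, lay above all 7 DM libraries, up to 10.6, with an average difference of 0.39 ± 0.11 (SE; adjusted p = 0.0094); over all genes 3.86% had no overlap in that direction. The third scaffold, Eef1e1, is no member by the rule, and it averaged 0.94 ± 0.20 (SE; adjusted p = 0.0017). Of the complex enzymes, Mars and Kars rose in G3 and G5, Dars rose in G3, Eprs fell in G5, and Iars, Lars, Qars and Rars passed in neither.

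Sars2, the mitochondrial serine enzyme, had the largest mitochondrial rise. In DM, Sars2 was 2.66 and 3.00 FPKM in G1, 4.25 and 3.13 in G3, and 4.37, 2.79 and 2.64 in G5. In TM, Sars2 was 3.93 and 4.62 FPKM in G1, 8.05, 15.4 and 14.2 in G3, and 13.0, 9.21 and 14.2 in G5. The late TM libraries, 8.05 to 15.4 FPKM, lay above the other 9, 2.64 to 4.62, and G1TM lay above G1DM. The mean was 3.40 times as high in G3TM as in G3DM and 3.72 times as high in G5TM as in G5DM. The average difference was 1.19 ± 0.15 (SE; adjusted p = 5.6e-05), and the G5 difference of 1.63 ± 0.24 was kept in every alternative.

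Yars2, the mitochondrial tyrosine enzyme, was the 1 enzyme for which all 8 TM libraries lay above all 7 DM libraries. With Aimp1, 2 of 41 members did so, and 3.86% of all genes tested. In DM, Yars2 was 2.76 and 4.81 FPKM in G1, 3.43 and 3.19 in G3, and 4.61, 3.62 and 3.88 in G5. In TM, Yars2 was 5.50 and 5.70 FPKM in G1, 7.82, 7.20 and 7.94 in G3, and 8.99, 5.58 and 7.88 in G5. The lowest TM library stood at 5.50 FPKM and the highest DM library at 4.81, and the average difference was 0.75 ± 0.12 (SE; adjusted p = 0.00027). Aars2 encodes the mitochondrial alanine enzyme. In DM, Aars2 was 3.00 and 3.19 FPKM in G1, 5.47 and 4.40 in G3, and 5.08, 3.40 and 3.70 in G5. In TM, Aars2 was 3.87 and 4.05 FPKM in G1, 5.74, 10.4 and 9.74 in G3, and 8.85, 7.76 and 10.2 in G5. The late TM libraries, from 5.74 FPKM, lay just above G3DM replicate 1 at 5.47, and the average difference was 0.64 ± 0.13 (SE; adjusted p = 0.0013).

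Other mitochondrial genes rose by less. Average differences of 0.38 to 0.50 passed for genes that included Cars2 (cysteine), Tars2 (threonine), Vars2 (valine), Pars2 (proline) and Ears2 (glutamate), and the Ears2 call was kept in 12 of 23 alternatives. In DM, Fars2 was 1.82 and 1.51 FPKM in G1, 2.60 and 2.32 in G3, and 2.80, 1.62 and 1.34 in G5. In TM, Fars2 was 1.44 and 1.46 FPKM in G1, 2.51, 4.41 and 3.44 in G3, and 3.83, 3.21 and 3.36 in G5. Fars2 rose in G5 by 0.64 ± 0.20 (SE; adjusted p = 0.013), and its average of 0.29 ± 0.13 (SE; adjusted p = 0.068) did not pass. Hars2, Mars2, Nars2 and Wars2 passed in no comparison. Of the 41 members, 10 passed in none of the 10 comparisons: those 4, Iars, Qars, Sars, Tarsl2, Gars and Prorsd1. Prorsd1, an editing protein related to the proline enzyme, had an average difference of −0.14 ± 0.16 (SE; adjusted p = 0.47). In DM, Prorsd1 was 2.87 and 2.85 FPKM in G1, 2.30 and 2.02 in G3, and 2.40, 3.82 and 3.62 in G5. In TM, Prorsd1 was 2.84 and 2.58 FPKM in G1, 3.14, 2.04 and 1.30 in G3, and 2.62, 3.50 and 1.34 in G5. Its groups overlapped in G3 and G5.

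Iars2, the mitochondrial isoleucine enzyme, fell. In DM, Iars2 was 10.5 and 13.0 FPKM in G1, 9.48 and 9.70 in G3, and 12.0, 11.1 and 11.0 in G5. In TM, Iars2 was 12.6 and 12.2 FPKM in G1, 9.50, 5.01 and 5.44 in G3, and 7.44, 7.60 and 5.65 in G5. G3TM replicate 1 lay among the 9 libraries outside late TM, and the other 5 late TM libraries, 5.01 to 7.60 FPKM, lay below all of them. The difference was −0.52 ± 0.22 (SE; adjusted p = 0.092) in G3 and −0.66 ± 0.20 (SE; adjusted p = 0.013) in G5, the latter lost without G5TM replicate 3 (range of adjusted p over alternatives 0.0018 to 0.057). On average it was −0.36 ± 0.13 (SE; adjusted p = 0.029), kept in 16 of 24 alternatives and lost without G1DM replicate 2, G1TM replicate 1 or 2, G3DM replicate 1 or 2, G3TM replicate 2 or 3, or G5TM replicate 3. Cytosolic Iars had an average difference of 0.32.

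Lars2, the mitochondrial leucine enzyme, stood close to 1 FPKM. In DM, Lars2 was 1.41 and 1.43 FPKM in G1, 1.12 and 1.21 in G3, and 1.78, 1.07 and 1.32 in G5. In TM, Lars2 was 1.32 and 1.64 FPKM in G1, 1.63, 1.42 and 1.38 in G3, and 0.613, 1.21 and 0.585 in G5. In G5 replicates 1 and 3 of TM were the lowest of the 15 libraries, while replicate 2, at 1.21 FPKM, lay within the DM range. The G5 difference was −0.41 ± 0.17 (SE; adjusted p = 0.047), and the call was kept in 7 of 24 alternatives (adjusted p 0.013 to 0.51). It was lost without either G1DM, G1TM or G3DM library, without G3TM replicate 2 or 3, and without G5DM replicate 1 or 3 or G5TM replicate 1 or 3. The call was also lost with no filter, quantile normalization, median centring, only the groups compared and the replicate block. Over the same libraries mt-Rnr2 was 44.7 to 73.6 FPKM in late TM and 1.48 to 3.76 elsewhere, and Lars2 was 0.585 to 1.63 and 1.07 to 1.78.

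Cytosolic and mitochondrial enzymes for the same amino acid were set side by side. On average over generations 11 of 17 pairs had differences of equal sign. In 6 pairs, among them alanine, cysteine, threonine, tyrosine and valine, both genes rose. In 6 (asparagine, histidine, leucine, methionine, phenylalanine and tryptophan) the cytosolic gene alone passed. In 3 (glutamate, proline and serine) the mitochondrial gene alone rose. For isoleucine the mitochondrial gene fell and the cytosolic gene did not pass, and for arginine neither passed. The phenylalanine pair used the subunit gene Farsa (1.18) against Fars2 (0.29), while the other subunit gene, Farsb, averaged 0.43. The valine pair was 1.37 ± 0.24 and 0.47 ± 0.12, and the serine pair 0.60 ± 0.24 and 1.19 ± 0.15; whether the 2 genes of a pair differed was not tested.

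**Figure D3:**
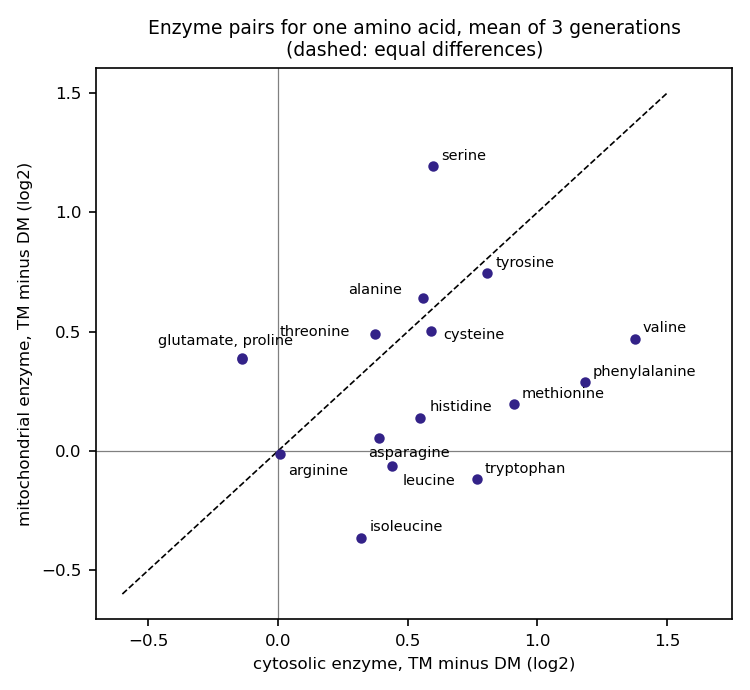
TM minus DM averaged over the 3 generations for the cytosolic gene (horizontal axis) and the mitochondrial gene (vertical axis) of each amino acid, on the log2(FPKM + 1) scale, 1 point for each of 16 of the 17 pairs. The dashed line marks equal differences. Serine lies far above it, valine and phenylalanine far below, and isoleucine has the lowest mitochondrial value (−0.36). Phenylalanine is drawn with Farsa, and the other subunit gene, Farsb, averaged 0.43.

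Class means were then compared by library. The mean log2(FPKM + 1) of the cytosolic genes was 4.65 and 4.73 in G1DM and 4.96 and 5.17 in G1TM. It was 4.72 and 4.59 in G3DM against 5.13, 5.48 and 5.32 in G3TM, and 5.05, 4.46 and 4.26 in G5DM against 5.18, 4.97 and 5.22 in G5TM. Libraries of TM and DM did not overlap in G1 and G3, and in G5 DM replicate 1 lay above TM replicate 2. The mitochondrial mean was 1.83 to 2.08 in the 7 DM libraries and 2.05 to 2.44 in the 8 TM libraries, and over all 15 libraries its Pearson correlation with the cytosolic mean was 0.929. Cytosolic minus mitochondrial mean was lowest in G5DM replicate 3 (2.40) and highest in G1TM replicate 2 (3.07).

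**Figure D4:**
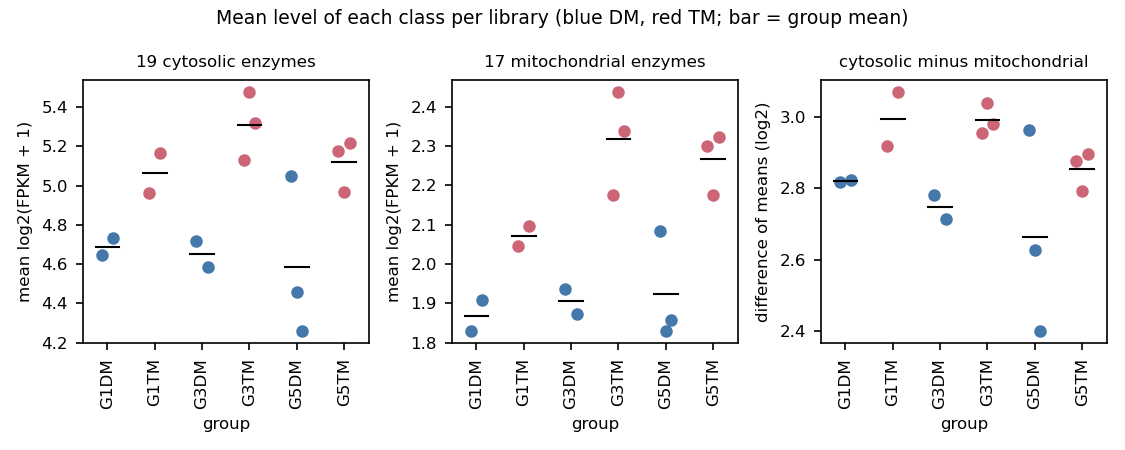
Mean log2(FPKM + 1) of the 19 cytosolic genes (left), of the 17 mitochondrial genes (middle) and their difference (right) in each library; points are libraries, blue for DM and red for TM, and the bar is the group mean. The axes do not start at 0. Replicate 1 of G5DM lies above the other G5DM libraries in all 3 panels.

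The G5DM libraries differed among themselves. Replicate 1 lay above replicates 2 and 3 for 16 of 19 cytosolic genes and 13 of 17 mitochondrial genes, with median ratios of 1.69 and 1.37 to their mean. Replicate 3 was the lowest of the 15 libraries for 12 cytosolic genes. Replicate 1 expressed Xist (4.88 FPKM) and the other G5DM libraries Y-linked genes (31.7 and 34.7 FPKM), and the part of this in the spread was not tested. Replicate 1 had 21138 genes above 0 and replicates 2 and 3 had 24874 and 25789, and the part of that was not tested either. In G3TM, replicate 1 lay below replicates 2 and 3 for 12 cytosolic and 10 mitochondrial genes. Replicate 2 of G3TM was the highest of the 15 libraries for 10 cytosolic and 9 mitochondrial genes.

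Across generations of DM no member passed. The step from G1 to G3 crosses the second division of the libraries, by genes above 0, which cannot be told apart from generation. From G1 to G3 limma called 0 of 41 (0.214% of all genes), 3 had an unadjusted p under 0.05, and limma-voom called 0. The count was 1 without G3TM replicate 1 and 2 without G5DM replicate 1, all lower. From G1 to G5 limma called 0 of 41 (0.0590% of all genes), 0 had an unadjusted p under 0.05, and limma-voom called 0. Over the cytosolic genes the median difference was −0.014 from G1 to G3 and −0.090 from G1 to G5.

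Across generations of TM, members moved in both directions. Both steps cross the division between the late TM libraries and the rest, and also the second division, by genes above 0. The G1TM libraries expressed Xist and the G3TM libraries Y-linked genes, so sex also changed from G1 to G3. None of these can be told apart from generation. From G1 to G3, 8 rose and 4 fell, where 25.2% of all genes rose and 21.6% fell, and from G1 to G5, 5 rose and 4 fell, where 26.0% rose and 23.5% fell. Farsa rose by 1.51 ± 0.34 and 1.203 ± 0.34, Sars2 by 1.32 ± 0.27 and 1.30 ± 0.27, and Aars2 by 0.92 ± 0.23 and 1.00 ± 0.23, in the same order of steps. Fars2 rose in both steps by 0.84 and 0.86. Eprs, Iars2 and Rars fell in both steps, Rars2 fell from G1 to G3 with a difference of −0.56 ± 0.21 (SE; adjusted p = 0.045), and Lars2 fell from G1 to G5 with −0.47 ± 0.19 (SE; adjusted p = 0.049). Without G1TM replicate 1 the calls of Farsa, Fars2, Iars2 and Rars in both steps and of Aars2 from G1 to G3 were lost. Without G1TM replicate 2 those of Rars in both steps and of Iars2 from G1 to G5 were lost. The Rars2 and Lars2 calls were kept in 10 of 25 and 6 of 24 alternatives.

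These counts moved with single libraries. From G1 to G3 within TM, 12 members were called in all. The count was 2 without G1TM replicate 1, 6 without G1TM replicate 2, G3TM replicate 2 or G3TM replicate 3, and 25 without G3TM replicate 1. From G1 to G5 it was 9, and became 3 without G1TM replicate 1, 5 without G1TM replicate 2 and 16 without G5DM replicate 1. Quantile normalization gave 6 risers and 10 fallers from G1 to G5.

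The interaction asks whether TM minus DM itself differed from that in G1. For G3, limma called 0 of 41 members (2.42% of all genes), 3 had an unadjusted p under 0.05, and limma-voom called 0; without G3TM replicate 1 the count was 1. For G5, 2 members passed (19.8% of all genes). Sars2 had a larger difference in G5 than in G1, by 1.17 ± 0.38 (SE; adjusted p = 0.047), and the Eprs interaction was −0.93 ± 0.27 (SE; adjusted p = 0.031). Without any single G1 library, G5DM replicate 2, G5TM replicate 1 or G5TM replicate 3 the count was 0, without G3DM replicate 1 or 2, G3TM replicate 3 or G5DM replicate 3 it was 1, without G3TM replicate 1 it was 3, and without G5DM replicate 1 it was 8.

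Synthetases fall into 2 classes with unrelated catalytic folds. Eprs, whose proline activity is of class II, was counted in class I by its glutamate activity. In G5, 8 of 19 class I genes rose and 3 fell, while 9 of 19 class II genes rose and 0 fell, where 30.3% of all genes tested rose and 28.4% fell. All 19 class II differences in G5 were above 0, from 0.02, with a median of 0.55, and the class I median was 0.31. Of the 19 class I differences 12 were above 0, and over all genes tested 50.7% were. In G3 the counts were 5 rising and 0 falling in class I and 7 and 0 in class II, against 18.0% and 13.9% of all genes tested. Whether the classes differed was not tested.

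Other genes of tRNA charging and tRNA quality rose in part. Of 14 such genes, all tested, 7 rose and 1 fell in G3, 11 rose and 1 fell in G5, and 10 rose and 1 fell on average, with a median of 0.43. The shares over all genes tested were 18.0% rising and 13.9% falling in G3, 30.3% and 28.4% in G5, and 29.0% and 25.1% on average. Ptrh2, a peptidyl-tRNA hydrolase, averaged 1.11 ± 0.12 (SE; adjusted p = 1.2e-05), from 4.40 ± 1.09 FPKM in G5DM to 15.7 ± 3.65 in G5TM (SD, n = 3 each). Trnau1ap and Eefsec, which act in selenocysteine insertion, averaged 0.89 ± 0.14 and 0.71 ± 0.15. Sepsecs, which makes selenocysteinyl-tRNA, fell by 0.39 on the log2 scale on average. The amidotransferase subunits Gatc and Qrsl1, which help form mitochondrial glutaminyl-tRNA, rose by 0.43 and 0.45.

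Genes of the Atf4 amino acid response rose in part. The list had 33 symbols, of which Ddit3 stands in 2 rows of the table, and 31 rows were tested. In G1, 1 rose and 0 fell, in G3 12 rose and 2 fell, in G5 12 rose and 4 fell, and on average 18 rose and 3 fell, with a median of 0.84. All genes tested had 1.17% called in either direction in G1, 18.0% rising and 13.9% falling in G3, 30.3% and 28.4% in G5, and 29.0% and 25.1% on average. Slc7a5, an amino acid transporter, averaged 1.49 ± 0.28 (SE; adjusted p = 0.00081), Cebpb 1.39 ± 0.19 (SE; adjusted p = 8.6e-05), Trib3 1.37 ± 0.50 (SE; adjusted p = 0.034), and Shmt2 1.32 ± 0.25 (SE; adjusted p = 0.00089). Nupr1 and Sesn2, a stress-response gene and a p53 target that restrains mTORC1, fell by 1.11 and 1.06 on the log2 scale. In DM, Atf4 was 93.3 and 73.2 FPKM in G1, 84.1 and 65.2 in G3, and 90.9, 44.6 and 40.3 in G5. In TM, Atf4 was 87.0 and 98.7 FPKM in G1, 124, 155 and 124 in G3, and 132, 149 and 99.2 in G5. Its difference was 0.16 ± 0.34 (SE; adjusted p = 0.95) in G1, 0.84 ± 0.31 (SE; adjusted p = 0.055) in G3 and 1.17 ± 0.28 (SE; adjusted p = 0.0034) in G5, and in G5 the TM libraries lay above the DM libraries.

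Of 6 genes tested that sense uncharged tRNA or act on that signal, 0 rose and 1 fell on average, where 29.0% of all genes tested rose and 25.1% fell. That gene was Impact, an inhibitor of Gcn2. In DM, Impact was 31.3 and 56.7 FPKM in G1, 4.95 and 12.7 in G3, and 23.01, 61.0 and 42.2 in G5. In TM, Impact was 24.6 and 14.3 FPKM in G1, 7.40, 4.14 and 7.69 in G3, and 9.41, 10.1 and 6.78 in G5. Its levels varied widely among DM libraries, from 4.95 to 61.0 FPKM, and the average difference was −1.17 ± 0.25 (SE; adjusted p = 0.0020). Eif2ak4, which encodes Gcn2, had an average difference of −0.13 ± 0.11 (SE; adjusted p = 0.33).

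Over the 15 libraries, the genes most like the cytosolic mean included 2 of serine and glycine metabolism. Among 11612 protein-coding genes tested that are no members, Pearson correlation on the log2(FPKM + 1) scale was highest for Shmt2 (0.979), a mitochondrial serine hydroxymethyltransferase, Psat1 (0.977), an enzyme of serine synthesis, and Vac14 (0.963), a scaffold of a lipid kinase. In DM, Psat1 was 76.9 and 63.6 FPKM in G1, 72.9 and 49.98 in G3, and 91.5, 41.4 and 34.6 in G5. In TM, Psat1 was 100.5 and 135 FPKM in G1, 114, 197 and 159 in G3, and 128, 115 and 133 in G5. All 8 TM libraries of Psat1 lay above all 7 DM libraries, where 3.86% of all genes tested did so. The mitochondrial mean was most like Fkbp4 (0.987), an Hsp90 co-chaperone, Ruvbl2 (0.987), an ATPase, and L3mbtl2 (0.983), a Polycomb-group protein. Atf4 correlated at 0.876 with the cytosolic and 0.811 with the mitochondrial mean, Trp53 at 0.854 and 0.922, Cdkn1a at −0.63 and −0.64, and mt-Rnr2 at 0.726 and 0.884. All of these are descriptions over libraries that share groups and scaling.

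**Figure D5:**
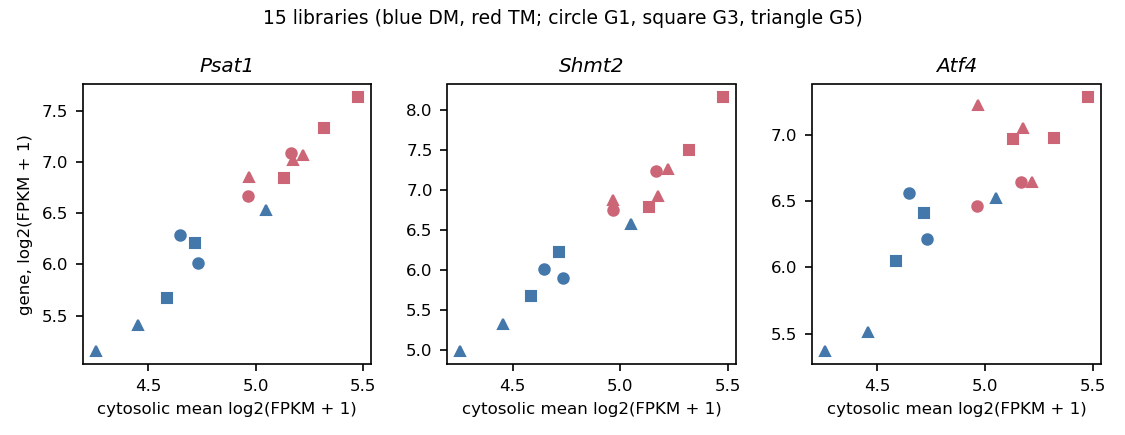
Log2(FPKM + 1) of Psat1, Shmt2 and Atf4 (vertical axes) against the mean of the 19 cytosolic synthetase genes (horizontal axes) in the 15 libraries; blue is DM, red is TM, circles G1, squares G3 and triangles G5. Psat1 and Shmt2 lie close to a line (Pearson correlation 0.977 and 0.979), and Atf4 scatters more (0.876).

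Position in the genome bears on a few members. Coordinates are as the table lists them, without a build in the sources used here. Iars2 (chromosome 1, 185284726 to 185329396) and Eprs (chromosome 1, 185363044 to 185428360) were the most reduced members in G5 on the log2(FPKM + 1) scale. By ratio of mean FPKM, TM to DM, Lars2 (0.577) stood between Eprs (0.559) and Iars2 (0.606). Iars2 and Eprs lie on opposite strands with 33647 bases between them, and genes within that gap were not looked for. Hars and Hars2 lie head to head on chromosome 18 and overlap by 198 bases. In all, 24 members overlap another listed gene and 15 overlap a gene that reached 1 FPKM, such as Aimp2 with Eif2ak1 (1548 bases), Cars2 with Naxd (984 bases), Iars2 with Rab3gap2 (2034 bases) and Mars with Ddit3 (68 bases). The sources used here do not say whether counting used strand, so reads from such overlaps cannot be told apart. Vars (chromosome 17, 35000987 to 35016322), Farsa (chromosome 8, 84856989 to 84869257), Sars2 (chromosome 7, 28741992 to 28753871), Yars2 (chromosome 16, 16302965 to 16309640) and Aimp1 (chromosome 3, 132660499 to 132684370) lie apart from each other.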

How the data were processed

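The authors deposited a table of FPKM values for 54495 genes in 15 libraries. Tools listed without a role in the submitters' processing notes are HISAT2 2.0.5, CASAVA 1.8, featureCounts 1.5.0-p3, fastp and DESeq2 1.20.0. The genome build is not given in the sources used here. FPKM times the listed gene length gave whole reads within 0.05 for 100% of values in each library. Members and gene lists were chosen with earlier results of these data known. A mean for each of the 6 groups was estimated with limma 3.58.1 (R 4.3.3) on log2(FPKM + 1) of the 13562 genes with at least 1 FPKM in 2 libraries, with variances moderated by empirical Bayes along a trend in intensity. The Benjamini-Hochberg adjustment of the two-sided p-values covered all genes tested, and an adjusted p under 0.05 counted as passed. The fit was tested on simulated data with independent noise and no division of the libraries, so that test does not cover the divisions seen here. In each comparison the 3 largest called rises and falls and the extremes of each class were named, with Lars2, Gars and Kars, up to 4 called genes of each other list, and the 3 genes most correlated with the cytosolic mean; Yars2, Mars, Farsb, Aimp1, the mitochondrial mean's 3 genes, and further genes of the other lists were chosen after their values were seen. Promoter sequences came from RefSeq (GRCm38.p6). Values of 1 member and 1 promoter match are not reported here. The alternatives were other pseudocounts (0.1 and 0.5), other filters, quantile normalization, median centring, only the groups compared, the replicate number as a block, limma-voom on recovered reads, no intensity trend, and leaving out each library. Python 3.11.15, numpy 2.4.6, pandas 2.3.3 and matplotlib 3.10.9 handled tables and plots.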

Additional observations from a re-analysis of the deposited data

Results flagged for a closer look

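The TM minus DM difference in G5 departed from that in G1 by an interaction test for 2 members. For Eprs the G5 difference minus the G1 difference was −0.93 (log2; adjusted p = 0.031, limma; 18 of 25 alternatives kept the call, with adjusted p from 0.014 to 0.13). It was lost without any single G1 library, G5DM replicate 2, G5TM replicate 1 or G5TM replicate 3. For Sars2 the G5 difference was higher by 1.17 (adjusted p = 0.047; 10 of 25 alternatives kept the call, with adjusted p from 0.012 to 0.17). In G5 all 3 Eprs values of TM were under those of DM and all 3 Sars2 values were over them, and in G1 both TM libraries lay above both DM libraries for each gene. The G5 comparison spans the division between the late TM libraries and the rest, and the 2 cannot be told apart.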

How the results depend on the processing

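Of 84 passed tests of members, 35 stayed passed in every alternative and 1 changed sign: Nars, averaged over generations, was −0.0049 with quantile normalization. For TM against DM in G3, 13 members were called and 4 with no filter, 8 with quantile normalization, 6 with only the groups compared and 4 with the replicate block. For G3 against G1 in DM the 0 became 1 with no filter and 1 with quantile normalization. For G3 against G1 in TM the 12 became 7 with no filter and 6 with the block, and for G5 against G1 in TM the 9 became 16 with quantile normalization and 14 with only the groups compared. For the G5 interaction the 2 became 1 with a pseudocount of 0.1, with no filter, with the block and with limma-voom, and 6 with quantile normalization. The cytosolic minus mitochondrial median of the average difference, 0.055, became −0.27 with quantile normalization and −0.10 with limma-voom. Apart from the construction of the filters and the smaller sample sets, the cause was not tested.

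Leaving out each library in turn gave counts of 0 to 0 for TM against DM in G1, 3 to 20 in G3, 13 to 25 in G5 and 20 to 29 on average, 0 to 2 and 0 to 0 for G3 and G5 against G1 in DM, 2 to 25 and 3 to 16 in TM, 0 to 1 for the G3 interaction and 0 to 8 for the G5 interaction. The class gap ranged from 0.0029 to 0.15. Where a group was left with 1 library, that library was assumed to vary like the other groups. The fit of only the groups compared gives no separate value for the average, which uses all groups. Over 33 same-numbered pairs of libraries the correlation of deviations was −0.54 to 0.38, and 9 were above 0.1. In groups of 2 libraries the deviations mirror each other, so some values repeat. Pairs of unlike number were not compared, so this cannot settle whether replicate numbers pair the libraries. The replicate block changed no other count of members by over 1.5 times. Groups of 2 or 3 libraries limit what G1 can show, and differences of genes near 1 FPKM, such as Nars2 and Lars2, are understated on this scale.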
